A study of Mus musculus with 4 samples.

Results

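The genes of the cytosolic heat shock protein system, 10 of 22063 genes listed, were described in mouse renal proximal tubular cells after hypoxia and reoxygenation: Hspa1a, Hspa1b, Hspa8, Hspa4, Hspa4l, Hsph1, Hsp90aa1, Hsp90ab1, Dnajb1 and Hspb1. They were taken by symbol, and all 10 passed the filter on low counts that left 11727 genes for testing. The list was selected on the counts of this same contrast, si-Itgb6 against si-NC, with the difference of Hspa4l already known. The differences of these 10 genes are therefore given as a description, with their errors and without p-values.

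RNA-sequencing was made from 4 libraries of TKPTS cells, a mouse proximal tubular cell line that the sample labels call TKPT. All 4 cultures were kept for 24 h in hypoxia (1% O2, 5% CO2) and then for 12 h in normal oxygen, so no library shows the level of these genes without that stress. In 2 libraries (si-NC, replicates 2 and 3, labelled Scrambled, genotype WT) the cells carried the control siRNA, and in the other 2 (si-Itgb6, replicates 1 and 3, labelled Itgb6-siRNA, genotype Itgb6 knockdown) they carried an siRNA against the integrin subunit β6. The labels do not say whether the replicates are separate cultures, so the spread between these libraries may be technical. The standard errors come from a fit that shares information on spread across genes. They can therefore be smaller than the spread of a single gene's own libraries would give.

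Heat shock proteins are chaperones, which bind unfolded or partly folded proteins and keep them from aggregating. In the cytosol, HSP70 proteins bind and release client proteins in a cycle driven by ATP. J-domain proteins such as the product of Dnajb1 bring clients to HSP70 and start its ATPase, and proteins of the HSP110 family (Hspa4, Hspa4l, Hsph1) exchange its nucleotide so that the client is let go. HSP90 takes over clients such as kinases and steroid receptors late in folding, and the small heat shock protein Hspb1 holds unfolded proteins without ATP. The transcription factor Hsf1 drives the inducible members during heat and other proteotoxic stress by binding repeats of a short word, the heat shock element, in their promoters. In the kidney, heat shock proteins are known as part of the response of tubular cells to ischaemia.

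The sequences that carry this element are shown first, because some of the 10 genes hold it close to their start and others do not. RefSeq promoters (GRCm38.p6, 250 bases before to 50 after each start) were at hand for 7 of the 10 genes; Hspa8, Hsp90aa1 and Hsp90ab1 had none. The words searched were GAANNTTC and TTCNNGAA for a pair of units, and GAANNTTCNNGAA and TTCNNGAANNTTC for 3 units, on both strands; every word of 3 units also holds both paired words. A paired word was found in 4 of the 7 genes (57.1%), against 17% of 27025 genes and 15.1% of 32851 promoters in the whole table. Hspa1a, Hspa1b, Hsph1 and Hspb1 held it, and Hspa4, Hspa4l and Dnajb1 did not. Of 52 other genes of the cytosolic chaperone system with a promoter, 16 (30.8%) held a paired word. A word of 3 units was found in Hsph1 only among the 7, against 0.662% of all genes and 3.85% of those 52. The sites are printed 5′ to 3′ on the strand of their gene, with 8 flanking bases on each side and the bases of each unit in capitals.
Hspa1a, chr17:34972245-34972268, minus strand: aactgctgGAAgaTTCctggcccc
Hspa1b, chr17:34959327-34959350, minus strand: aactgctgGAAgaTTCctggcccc
Hspb1, chr5:135887794-135887817, plus strand: caacaagaGAAgtTTCcagatggg
Hspb1, chr5:135887814-135887837, plus strand: tgggggcaGAAccTTCctggcccc
Hsph1, chr5:149636354-149636377, minus strand: tagaatctTTCtcGAAggctcgag
Hsph1, chr5:149636280-149636308, minus strand: gctgcagaTTCtgGAAagTTCtcctcagt

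The site of Hspa1a and that of Hspa1b had the same letters and lay at the same distance, 104 to 97 bases before the start. The sites of Hspb1 lay 117 to 110 and 97 to 90 bases before its start. Hsph1 has 2 starts in the table, and its word of 3 units lay after both, 15 to 27 bases after one and 36 to 48 bases after the other. A match is a description of these letters, and a promoter without one says only that the words were not in this window. The log2 fold changes of the genes that held a paired word were 0.32 for Hspa1a, 0.15 for Hsph1, 0.044 for Hspa1b and -0.28 for Hspb1. Those of the genes without one in this window were 0.43 for Hspa4l, 0.14 for Hspa4 and 0.038 for Dnajb1. The genes were chosen with these differences known, and a relation between the words and the differences was not tested.

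The libraries held between 15435087 and 17220285 estimated counts. Itgb6, the target of the siRNA, was counted 285 and 284 times in the si-NC libraries and 279 and 260 times in the si-Itgb6 libraries. Its log2 fold change was -0.0051 (95% interval -0.27 to 0.26; adjusted p = 0.991, edgeR quasi-likelihood test with Benjamini-Hochberg adjustment), so the labelled knockdown did not appear in its RNA count, and all directions below are those of the libraries labelled si-Itgb6. Of 9 proximal tubule markers, 1 (Aqp1) had a mean of at least 1 FPKM, and Slc34a1, Slc5a2 and Slc22a6 were at 0. The summed FPKM of these markers was 10.5 to 12.4 in si-NC and 16.3 to 16.8 in si-Itgb6. That sum was carried by Aqp1, which rose by 0.59 on the log2 scale (adjusted p = 0.000617, edgeR). Cubn had 0.016, and Ggt1 (-0.19) and Anpep (-0.58) had values below 0, all without a call. The proximal tubule markers thus did not rise as a set. All 4 epithelial markers were present, at a sum of 1314 to 1336 FPKM in si-NC and 1212 to 1225 FPKM in si-Itgb6, and all 4 tubular injury markers at 833 to 856 and 763 to 784 FPKM. That last sum was carried by Lcn2, which fell by 0.17 on the log2 scale (adjusted p = 0.0322, edgeR), while Havcr1 (KIM-1) rose by 0.19 (adjusted p = 0.0358, edgeR), so the injury markers did not move one way. Of the epithelial markers, Krt8 fell by 0.20 (adjusted p = 0.00881, edgeR). Epcam (-0.15), Cdh1 (-0.14) and Krt18 (-0.029) also had values below 0, without a call. Of 5 macrophage markers, 2 reached 1 FPKM, Cd68 (mean 84.5 FPKM) and Csf1r (7.86 FPKM). Ptprc, Adgre1 and Itgam had means of at most 0.0325 FPKM, so the sum (92.6 to 100.03 FPKM in si-NC and 84.5 to 92.7 FPKM in si-Itgb6) was carried by Cd68. The endothelial and fibroblast markers summed to at most 2.07 and 1.06 FPKM. The part of these shifts in the results below was not tested.

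Together the 10 genes took 1.32% and 1.35% of all counts in the si-NC libraries and 1.37% in each si-Itgb6 library. Their levels, as FPKM (fragments scaled to transcript length and library size, which allows a comparison between genes), spanned from Hsp90ab1, at a mean of 2125 FPKM over the 4 libraries, to Hsph1, at 30.9 FPKM. Hsp90ab1, the constitutive HSP90, was the 24th most abundant of the 11727 genes by this measure. Hspa8, the constitutive HSP70, followed with 1388 FPKM (place 58), so both leading genes encode the forms that cells make without stress. Next came Hsp90aa1, the more inducible HSP90, with 717 FPKM, and Hspb1 with 665 FPKM. The ranges of these 2 genes over the libraries overlapped, and their order differed between the groups. Hspb1 was above Hsp90aa1 in both si-NC libraries (712 and 752 FPKM against 705 and 688 FPKM). It was below Hsp90aa1 in both si-Itgb6 libraries (628 and 567 FPKM against 713 and 764 FPKM). Hspa1b (233 FPKM), Hspa4 (155 FPKM), Hspa1a (92.5 FPKM) and Hspa4l (57.2 FPKM) followed without overlap between neighbours. At the end stood Dnajb1 (33.1 FPKM) and Hsph1 (30.9 FPKM), whose ranges overlapped. When the level was taken instead as normalized counts per kilobase of the longest annotated transcript, 8 of the 10 genes kept their place, and Hspa4l and Dnajb1 changed places.

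**Figure D1:**
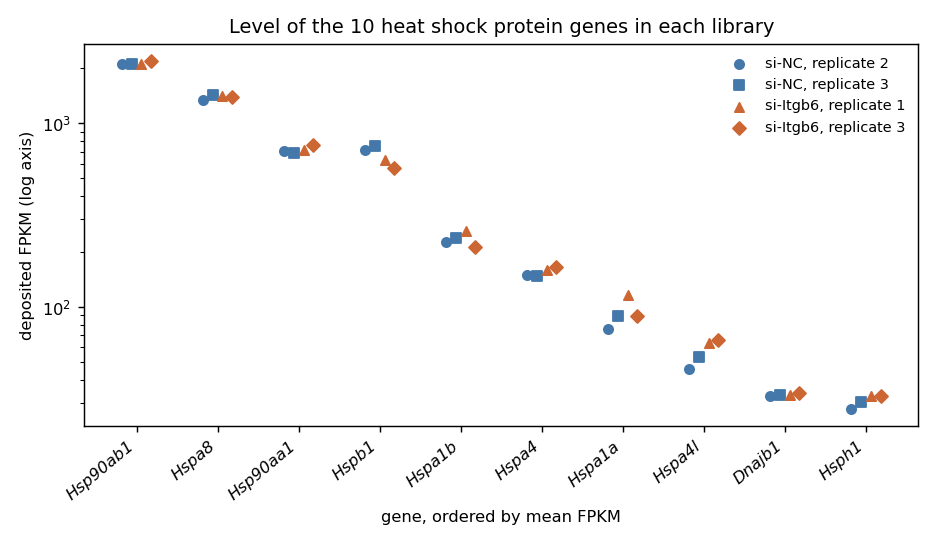
FPKM deposited by the authors (vertical log axis) for each of the 10 genes in each of the 4 libraries; each symbol is 1 library. The order runs from Hsp90ab1 near 2125 FPKM to Hsph1 near 30.9 FPKM, and in each gene the spread of the libraries is small beside the distance across the family.

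That exchange rests on the length that enters the unit. The deposited FPKM values of Hspa4l imply a transcript length of 4.22 to 4.43 kb, depending on the library, while its longest annotated transcript has 9.48 kb. For Hsph1 the implied length was 3.45 to 3.69 kb, beside a longest transcript of 4.76 kb. It was 2.39 kb beside 3.16 kb for Hspa8, and 3.01 kb beside 3.28 kb for Hsp90aa1. For Hspa1a, Hspa1b, Hspa4 and Hsp90ab1 the implied length equalled the longest transcript to 3 digits. Differences between the groups were therefore taken from the counts and not from FPKM. They are given as CPM, counts scaled to a common library size with TMM factors, and as log2 fold changes of si-Itgb6 against si-NC with their standard error.

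Of the 10 genes, 9 had a log2 fold change above 0 and 1, Hspb1, had one below 0, with a median of 0.071 beside 0.00017 over all 11727 genes. The CPM of the groups did not overlap for 7 of the 10 genes, and this was so for 49.2% of all genes tested. Over all genes, 2.52% were called lower and 2.11% higher at an adjusted p under 0.05, or 4.62% in either direction. Since the genes were chosen with this contrast known, nothing is read from these counts. The sizes fell into 3 parts: Hspa4l and Hspa1a above 0.3 on the log2 scale, Hspb1 below 0, and the other 7 between 0.032 and 0.15.

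**Figure D2:**
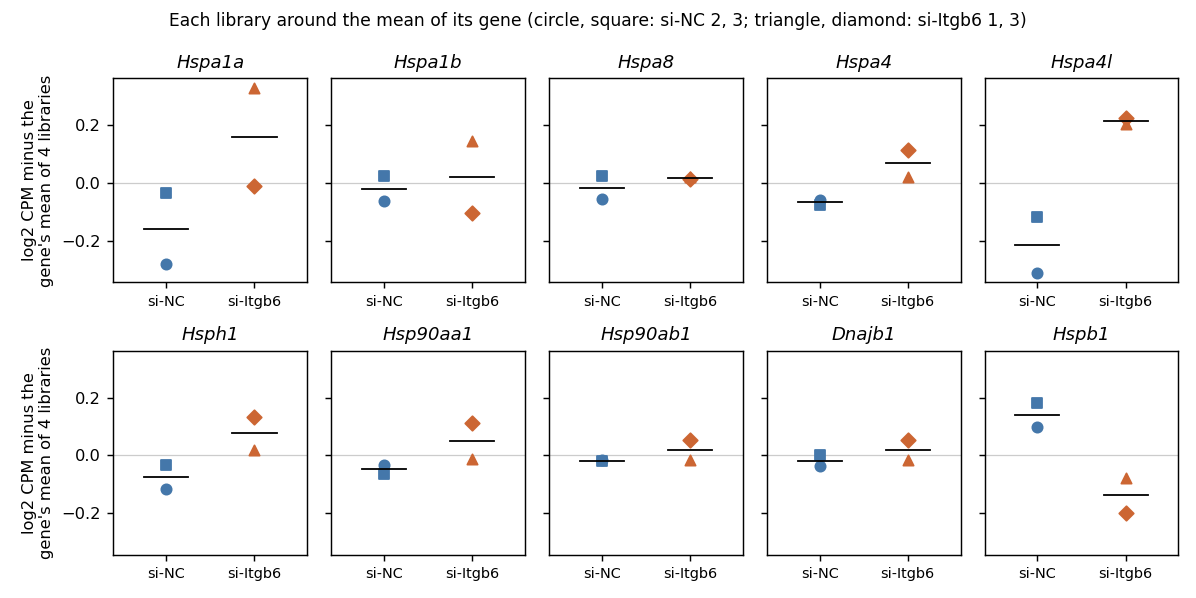
Log2 CPM of each library minus the mean of that gene over the 4 libraries; symbols are libraries, and the line is the mean of each group. Both si-Itgb6 libraries lie above both si-NC libraries for Hspa4l and below them for Hspb1, while Hspa1a is spread widely within each group.

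Hspa4l (ENSMUSG00000025757, chr3:40744495-40796103 on the plus strand in GRCm38) encodes a protein of the HSP110 family, a nucleotide exchange factor of HSP70. It was counted 3191 and 3869 times in the si-NC libraries and 4341 and 4682 times in the si-Itgb6 libraries. As CPM this was 196 and 224 against 280 and 284. Both si-Itgb6 libraries were above both si-NC libraries, and they differed from each other by only 0.020 on the log2 scale, whereas the si-NC pair differed by 0.20. The log2 fold change was 0.43 ± 0.059 (SE, n = 2 and 2), or 1.35-fold. With si-NC replicate 2 left out it was 0.33, and with si-NC replicate 3 left out it was 0.53, so the size depended mostly on which control library was used.

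The other HSP110 genes differed less. Hspa4, the most abundant of the family, had 687 and 679 CPM in si-NC and 726 and 775 CPM in si-Itgb6, a log2 fold change of 0.14 ± 0.048. Hsph1, the heat-inducible HSP110, had 102 and 108 CPM against 112 and 122 CPM, a log2 fold change of 0.15 ± 0.068. In both genes the groups did not overlap, but the gap was smaller than the distance between the si-Itgb6 libraries. The family summed to 224 and 231 FPKM in si-NC and to 254 and 264 FPKM in si-Itgb6. Within that sum Hspa4l made up 20.6% and 23.0% in si-NC and 25.01% and 24.98% in si-Itgb6. The share of Hspa4 was 67.0% and 63.8% in si-NC and 62.1% and 62.6% in si-Itgb6, and that of Hsph1 lay between 12.4% and 13.2% in all libraries. These shares are by the deposited FPKM and carry its lengths.

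Hspa8, the constitutive HSP70 that also uncoats clathrin vesicles, had 3192 and 3379 CPM in si-NC and 3366 and 3350 CPM in si-Itgb6. The groups overlapped, and the log2 fold change of 0.032 ± 0.041 was below its error. It made up between 79.1% and 82.0% of the FPKM of the 3 cytosolic HSP70 genes Hspa8, Hspa1a and Hspa1b in every library. Parts of its sequence recur elsewhere: 41.3% of the 75-base stretches of its longest transcript are also found in transcripts of 13 other genes, pseudogenes among them. Of these 13 genes, 0 are among the genes listed, and the counts of Hspa8 were whole numbers. Its counts may depend on how such reads were assigned, which was not tested. The longest transcript has 3.16 kb, while the deposited FPKM values imply 2.39 kb, so the 41.3% may not be that of the sequence counted.

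Hspa1a and Hspa1b encode the stress-inducible HSP70 and are near copies of each other. They lie on the minus strand at chr17:34969190-34972156 and chr17:34956436-34959238 (GRCm38), 9951 bases apart, each with 1 exon. Their coding sequences are 99.5% identical and their 5′ UTRs 98.7%, while their 3′ UTRs share 52.9%. Of the 75-base stretches of Hspa1a, 61.7% occur in another gene, and of those of Hspa1b 55.8%. They were also the only members whose estimated counts were not whole numbers, in all 4 libraries; a count of undivided reads would be whole.

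Hspa1a had 223 and 265 CPM in si-NC and 341 and 269 CPM in si-Itgb6. The groups did not overlap, but si-Itgb6 replicate 3 was only just above si-NC replicate 3, and each pair of replicates lay far apart (0.25 and 0.34 on the log2 scale, beside a median of 0.053 and 0.067 over the 3236 genes with a mean of at least 1000 counts). The log2 fold change was 0.32 ± 0.075, and it was 0.14 without si-Itgb6 replicate 1 and 0.49 without si-Itgb6 replicate 3. This range shows the spread of its libraries better than the error does, because the fit shares spread across genes. Hspa1b had 624 and 661 CPM against 719 and 605 CPM, and the groups overlapped. Its log2 fold change was 0.044 ± 0.057, and it became -0.087 without si-Itgb6 replicate 1. In both genes si-Itgb6 replicate 1 was the highest library.

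The sum over both genes sets aside the division of reads between them, but not any division with other genes that share their sequence. It was 846 and 925 CPM in si-NC and 1060 and 874 CPM in si-Itgb6. The groups overlapped in the sum, and its log2 fold change was 0.13 ± 0.059. The share of Hspa1a in the counts of the pair was 26.3% and 28.6% in si-NC and 32.2% and 30.8% in si-Itgb6. The difference of Hspa1a therefore holds 2 components in these tables, a higher sum in 1 si-Itgb6 library and a higher share of the pair in both, and the counts alone cannot tell the share from the assignment of shared reads. Hspa1a also overlaps Gm20481 on the opposite strand, and the libraries carry no strand information.

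**Figure D3:**
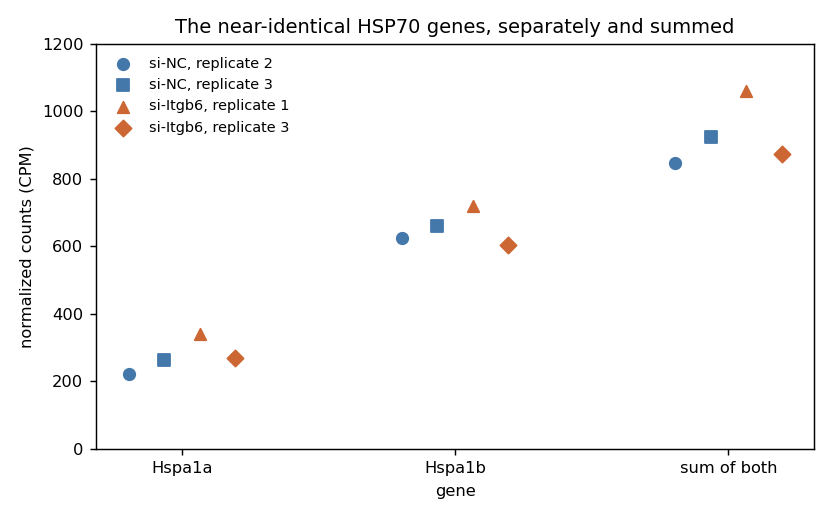
CPM of Hspa1a, of Hspa1b and of their sum in each of the 4 libraries, on a linear axis from 0; each symbol is 1 library. si-Itgb6 replicate 1 is the highest in each column, and si-Itgb6 replicate 3 lies between the si-NC libraries in the sum.

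The HSP90 genes were close to equal between the groups. Hsp90ab1 had 5285 and 5279 CPM in si-NC and 5293 and 5545 CPM in si-Itgb6, a log2 fold change of 0.037 ± 0.040. Hsp90aa1 had 2107 and 2063 CPM against 2136 and 2331 CPM, a log2 fold change of 0.099 ± 0.045, which was 0.037 without si-Itgb6 replicate 3. The groups did not overlap for either gene, yet si-Itgb6 replicate 1 exceeded the nearest si-NC library only slightly, and most of both differences came from replicate 3. Hsp90ab1 held between 74.0% and 75.4% of the FPKM of both genes in every library. Of the 75-base stretches of Hsp90aa1, 53.1% recur in other genes, and of those of Hsp90ab1 0.74%.

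Dnajb1, the J-domain partner of inducible HSP70, had 96.7 and 99.2 CPM in si-NC and 98.2 and 103 CPM in si-Itgb6. Its groups overlapped, with a log2 fold change of 0.038 ± 0.068. No 75-base stretch of it recurs in another gene. Dnajb1 is a typical heat shock gene, induced together with Hspa1a by heat. Its 0.038 stood beside 0.32 for Hspa1a, 0.044 for Hspa1b and 0.13 for their sum, and differences between these values were not tested.

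Hspb1 (ENSMUSG00000004951, chr5:135887919-135889563 on the plus strand in GRCm38), the small heat shock protein also known as Hsp25 in mice, was the member that was lower in both si-Itgb6 libraries. It was counted 10429 and 11702 times in si-NC and 8760 and 8565 times in si-Itgb6, which was 639 and 677 CPM against 566 and 520 CPM. The groups did not overlap. The log2 fold change was -0.28 ± 0.051, a mean CPM 17.5% lower, and it ranged from -0.34 to -0.22 when each library was left out in turn. Of its 75-base stretches, 47.3% are shared with other genes, among them the pseudogene Hsp25-ps1.

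Base composition moved with the differences across the whole table. Over 11709 genes the log2 fold change and the GC content of the longest transcript had a Spearman correlation of -0.36, which is across genes and not across independent replicates. Hspa4l had the lowest GC content of the 10 transcripts (39.5%) and Hspb1 the highest (61.7%). With the trends of GC content and length removed from each library, the log2 fold change of Hspa4l was 0.31 and that of Hspb1 -0.16. Both traits were taken from the longest transcript. For Hspa4l this has 9.48 kb, while its deposited FPKM values imply 4.22 to 4.43 kb, so they may not be those of the sequence counted. Hspa1a, with 58.9% GC, moved up as Hspb1 did, from 0.32 to 0.44, which for Hspa1a was away from 0. Hspa1b became 0.15 and Hsp90aa1 0.049. The order of the differences was thus not stable under this setting, and Hspa1a stood above Hspa4l, while the signs of all 10 were kept. Hspa1a was also above Hspa4l without si-Itgb6 replicate 3 (0.49 against 0.42).

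**Figure D4:**
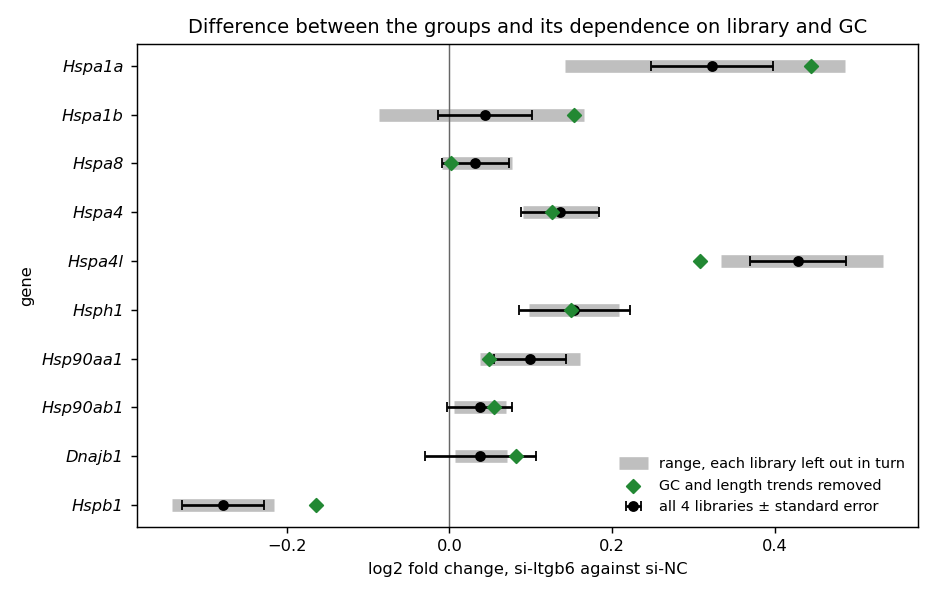
Log2 fold change of si-Itgb6 against si-NC for each gene: black points with 4 libraries and bars of 1 standard error, grey bands for the range when each library is left out in turn, and green diamonds with GC and length trends removed. Hspa4l stays above 0.3 and Hspb1 below -0.1 throughout, and the bands of Hspa1b and Hspa8 cross 0.

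The other genes of the cytosolic chaperone system, 64 genes in 8 lists, were tested in the same fit. Of the 59 that passed the filter, 1 rose and 0 fell at an adjusted p under 0.05 in edgeR's quasi-likelihood test, beside 2.11% and 2.52% of all genes; 11 had an unadjusted p under 0.05 (18.6%, beside 18.4% of all genes), 3 of them lower, and DESeq2 also called 0 lower. These shares are near those of all genes, so they say nothing particular about the chaperone lists. The gene that rose was Dnaja1, a J-domain partner of HSP70, at a mean of 188 CPM in si-NC (SD 12.0, n = 2) against 218 CPM in si-Itgb6 (SD 9.97, n = 2), a log2 fold change of 0.21 ± 0.059 (adjusted p = 0.0330). Its call was lost, with the sign kept, when si-NC replicate 2 (0.15, adjusted p = 0.589), si-NC replicate 3 (0.28, adjusted p = 0.0802) or si-Itgb6 replicate 3 (0.17, adjusted p = 0.152) was left out, with scaling by library size alone (0.20, adjusted p = 0.0505), with the GC and length trends removed together (0.13, adjusted p = 0.271) and in limma on FPKM (0.22, adjusted p = 0.184). Without si-Itgb6 replicate 1, 5 genes were called higher, Dnaja1, Cct6a, Pfdn2, Pfdn4 and Pfdn6, while the share called over all genes was 6.52%. At the study's thresholds (unadjusted p under 0.05 and fold over 1.2), 5.20% of all genes were lower and 4.37% higher, 9.57% in all; of the 59 chaperone genes 1 was lower, the HSP70 co-chaperone Hspbp1 (-0.29), and 2 were higher, Dnajb4 (0.29) and Hspb8 (0.28). Over the 59 genes the median log2 fold change was 0.041, and the groups did not overlap for 49.2% of them, as for all genes.

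**Figure D5:**
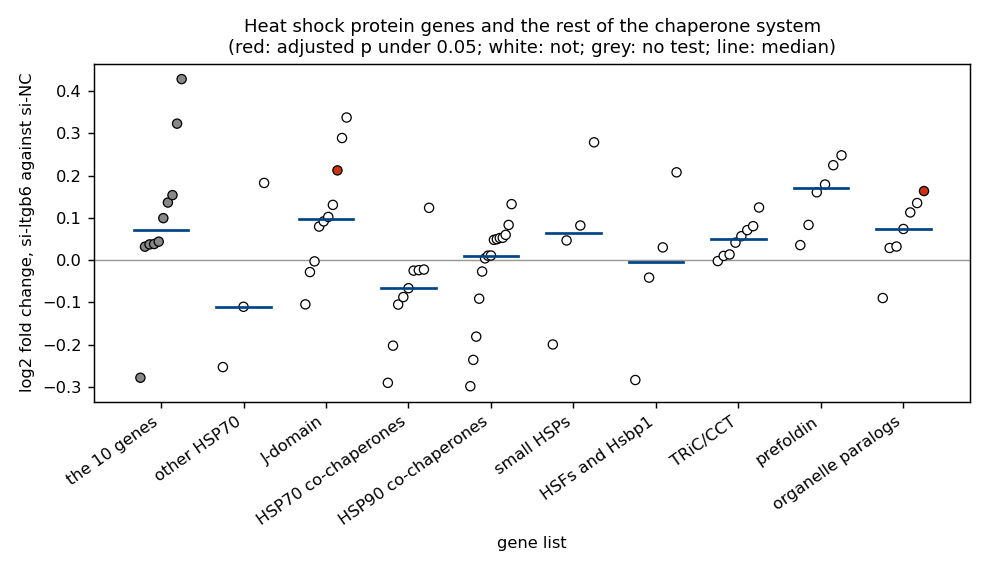
Log2 fold change of si-Itgb6 against si-NC for the 10 genes and for each chaperone list; each point is 1 gene, blue lines are medians, grey points are the 10 genes, for which no test is shown, and in the other lists red marks an adjusted p under 0.05. The 10 genes span from -0.28 to 0.43, prefoldin genes all lie above 0, and in the lists with a test Dnaja1 and Hspa5 are in red.

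In the J-domain list, 7 of 10 genes had a positive value and the median was 0.097. Dnajc5, a synaptic vesicle J protein, was the most abundant at 177 FPKM (0.079, adjusted p = 0.395), and Dnajb6, which holds back aggregates, had 0.10 (adjusted p = 0.320). Of the 3 other HSP70 genes tested, Hspa14 was the most abundant (39.4 FPKM; -0.11, adjusted p = 0.471), while Hspa1l and Hspa2 lay near 1 FPKM with standard errors of 0.31 and 0.33. Hspa12a and Hspa12b did not pass the filter.

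The HSP70 co-chaperones had values below 0 in 8 of 9 genes, with a median of -0.067 and 0 calls in either direction, and 2 at an unadjusted p under 0.05. Stip1, which links HSP70 to HSP90, had -0.025 (adjusted p = 0.826), and St13, which stabilizes HSP70 with its client, had -0.067 (adjusted p = 0.504). Bag1, a nucleotide exchange factor like the HSP110 proteins, was the exception at 0.12 (adjusted p = 0.244). The 15 HSP90 co-chaperones had a median of 0.011 and 0 calls, with 2 at an unadjusted p under 0.05. Among the most abundant of them, Fkbp4 had 0.053 (adjusted p = 0.633), Nudc 0.049 (adjusted p = 0.703) and Ptges3, the HSP90 co-chaperone p23, 0.048 (adjusted p = 0.683).

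Among the small heat shock proteins, 4 of 7 genes were tested. Cryab, the relative of Hspb1 with the highest level (484 FPKM), had a value of 0.046 on that scale (adjusted p = 0.679), beside -0.28 for Hspb1. Hspb2, the neighbour of Cryab, had 0.082 (adjusted p = 0.728), and Hspb6 had -0.20 (adjusted p = 0.368). Hspb3 and Hspb7 were at 0 in all libraries, and Cryaa did not pass the filter. Hsf1, the factor that drives the heat shock response, lay at 26.4 FPKM and differed by 0.030 (adjusted p = 0.890), Hsf2 had 0.21 (adjusted p = 0.501), and Hsbp1, which binds Hsf1 and restrains it, had -0.041 (adjusted p = 0.814).

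The subunits of the chaperonin TRiC/CCT, which folds actin and tubulin, had values above 0 in 7 of 8 genes and a median of 0.049. Its most abundant subunits were Cct2 (0.071, adjusted p = 0.437), Cct5 (0.0098, adjusted p = 0.942) and Tcp1 (0.080, adjusted p = 0.374). Prefoldin, which hands new actin and tubulin to TRiC, had values above 0 in 6 of 6 genes. Its median, 0.17, was the highest of the 8 lists, with 0 calls by edgeR and 2 at an unadjusted p under 0.05. The groups did not overlap for 2 of the 6 genes (33.3%, beside 49.2% of all genes). Only si-Itgb6 replicate 3 was above both si-NC libraries in Pfdn2 (59.9 CPM, beside 45.4 and 41.4) and Pfdn6 (60.8 CPM, beside 46.9 and 49.8). Pfdn1 had 0.083 (adjusted p = 0.513), Pfdn5 0.16 (adjusted p = 0.273) and Pfdn6 0.18 (adjusted p = 0.303).

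The paralogs in the organelles were compared with the cytosolic forms. Hspa5, the HSP70 of the endoplasmic reticulum, had a mean of 1749.7 CPM in si-NC (SD 64.6, n = 2) and 1959 CPM in si-Itgb6 (SD 145, n = 2) and rose by 0.16 ± 0.047 (SE) on the log2 scale (adjusted p = 0.0392, edgeR), and was higher in both si-Itgb6 libraries than in either si-NC library. The call was lost, with the sign kept, when si-NC replicate 2 (0.20, adjusted p = 0.331), si-NC replicate 3 (0.13, adjusted p = 0.396) or si-Itgb6 replicate 3 (0.088, adjusted p = 0.194) was left out, in edgeR's likelihood ratio test (0.16, adjusted p = 0.0508), with the GC and length trends removed together (0.14, adjusted p = 0.0936) and in limma on FPKM (0.16, adjusted p = 0.224). Hsp90b1, the HSP90 of the same compartment, had 0.074 (adjusted p = 0.380), and Hyou1, its HSP110, had -0.090 (adjusted p = 0.419), opposite in sign to the 3 cytosolic HSP110 genes, a difference that was not tested. In the mitochondria, Hspa9 had 0.029 (adjusted p = 0.789), Trap1 0.032 (adjusted p = 0.838), Hspd1 0.13 (adjusted p = 0.139) and Hspe1 0.11 (adjusted p = 0.414).

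The genes whose log2 CPM, centred over the 4 libraries, was most like that of Hspa4l were Socs5, Plk2, Cflar, Ahnak and Mocos, of 9159 genes with a mean of at least 100 counts outside the 10. Their root mean square difference from Hspa4l was 0.016, 0.020, 0.022, 0.024 and 0.026 on the log2 scale. With 4 libraries in 2 groups, this likeness reflects mostly the difference between the groups and the distance between the si-NC libraries. No other member was among these 5 genes by construction, and the profile of Hspa1a, the member nearest to Hspa4l in its log2 fold change, differed in its order, with si-Itgb6 replicate 1 highest in place of replicate 3.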

How the data were processed

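The authors sequenced polyadenylated RNA of 4 libraries and deposited estimated counts per gene, not normalized, and FPKM values; the aligner, counter and genome build are not given in the sources used here. After rounding, low genes were dropped by filterByExpr (at least 10 counts, total 15), and edgeR 4.0.16 (R 4.3.3) gave TMM factors and quasi-likelihood fits, with Benjamini-Hochberg adjustment over 11727 genes and a threshold of 0.05. Standard errors come from that fit. The 10 genes, the chaperone lists and the rule for named genes (the 10; Itgb6; called genes of a list and up to 3 with the highest FPKM; organelle paralogs; 5 genes nearest to Hspa4l) were chosen with earlier results of these data known; Cct6a, Pfdn2, Pfdn4, Dnajb4, Hspb8 and Hspbp1 were named after their values were seen. In simulated counts, the test recovered 81% of genes changed by 0.5 and 100% of those changed by 1 on the log2 scale (100 each, 11703 genes), and called 10 unchanged genes. The simulation gave all genes the same spread, without GC trends or library effects, and its changes were larger than those of the 10 genes. These rates check the code and do not give the power for the differences reported here. Replicates differed by more than sampling noise (chi-square per gene 3.21 in si-NC, 4.04 in si-Itgb6). The smallest two-sided permutation p for 2 against 2 libraries is 0.333. Gene positions, GC content and shared 75-base stretches are from GENCODE vM21 (GRCm38), where 99.6% of genes listed were found, and promoters from RefSeq; this annotation may not be the authors'. Sequence identity is from edit distance (edlib). Alternatives were DESeq2 1.42.0, limma 3.58.1 on log2(FPKM + 1), edgeR's likelihood ratio test, RLE and no scaling factors, no filter and a stricter one, the study's thresholds (unadjusted p under 0.05, fold over 1.2), removal of GC and length trends, and each library left out.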

Additional observations from a re-analysis of the deposited data

How the results depend on the processing

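With 2 libraries per group, single libraries set most counts of calls. Over all genes, 295 were lower and 247 higher in edgeR's quasi-likelihood test; the counts were 147 and 139 with DESeq2, 105 and 112 with GC and length trends removed, 0 and 0 with limma on log2(FPKM + 1) (1700 genes at an unadjusted p under 0.05), and 610 and 512 at the study's thresholds. Scaling by library size alone gave 298 lower and 173 higher. Leaving out each library in turn gave 6 to 413 lower and 7 to 368 higher genes. Dropping si-NC replicate 2 left 6 and 7, dropping si-NC replicate 3 left 114 and 108, dropping si-Itgb6 replicate 1 gave 413 and 368, and dropping si-Itgb6 replicate 3 gave 222 and 264. Of the 59 chaperone genes, 1 was higher and 0 lower; the number higher was 0 with library size alone, with GC and length trends removed and with limma, 2 (Dnajb4 and Hspb8) at the study's thresholds, where 1 (Hspbp1) was lower, and 0 to 5 when each library was left out, with 0 lower each time. The median log2 fold change of the 10 genes stayed between 0.053 and 0.11 under the alternatives run. Of the values of single members under the alternatives, 102 moved by less than 1 standard error of the fit and 18 by more; the sign changed for Hspa1b (-0.087 with si-Itgb6 replicate 1 left out) and Hspa8 (-0.0096 with si-NC replicate 2 left out). No paired analysis was possible because the groups share only replicate number 3. The log2 fold change of Itgb6 ranged from -0.10 to 0.091 when each library was left out. The cause of these changes was not tested. Whether the siRNA lowered the protein of Itgb6, and the level of these genes without hypoxia, cannot be read from these libraries. The paper reports less integrin αvβ6 by western blot in hypoxic TKPTS cells given si-Itgb6, and a check of the siRNA by qPCR.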
